A study of Mus musculus with 3 samples.

Results

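The isoforms described here are the transcripts that the GENCODE M21 annotation types as nonsense-mediated decay (NMD), taken from genes with a mean level of at least 1 TPM, a level corrected for transcript length and sequencing depth, over the 3 libraries. The annotation in the tables holds 7186 such transcripts in 4576 genes, among 141767 transcripts of all types. The threshold of 1 TPM kept 4703 NMD isoforms in 2831 host genes, and the other 2483 were left out. The measured value used to choose them was the TPM of the host gene, so that level is given only as a description. At the threshold, Mvd had a mean of 1.0000 TPM and Ptpn4 1.0033 TPM, just inside it, and Trim15 had 0.9933 TPM and Polh 0.9867 TPM, just outside it. Of the host genes, 1735 had 1 NMD isoform, and Slc4a7 had the highest number, 18.

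The libraries were total RNA-seq of the chromatin fraction of primary macrophages grown from bone marrow of C57BL/6J mice, with ribosomal RNA depleted. All cells had received lipid A, the part of lipopolysaccharide that TLR4 recognises, at 100 ng/ml for 90 min. The 3 biological replicates form 1 group and share 1 donor label, and the labels record neither age nor sex. The libraries were made from 1 µg, 250 ng and 500 ng of RNA for replicates 1, 2 and 3, with a size range of 250 to 400. No untreated cells and no other cell fraction were analysed here, so the values are levels on chromatin after lipid A and neither responses nor decay rates. P-values measure the spread between these 3 libraries, part of which may be technical.

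The alignment-based tables held 11277198, 24965749 and 19794886 expected counts in replicates 1, 2 and 3, of which 251312, 358596 and 351740 lay in the NMD isoforms. All 25 macrophage markers had a mean of at least 1 TPM, among them Adgre1, the gene of F4/80, at 258 TPM, 169.7 TPM and 235.5 TPM. Of the 44 markers of neutrophils, lymphocytes, dendritic cells, stroma and endothelium, 5 had a mean of at least 1 TPM (Csf3r, Lck, Zbtb46, Batf3 and Kdr), and none of the 44 belongs to a gene with an NMD isoform in the set. In bulk libraries, fewer cells of a type and less RNA per cell cannot be told apart. Replicate 1 stood apart from the others in isoform makeup, as described with the isoform types.

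Nonsense-mediated decay is a surveillance pathway that removes mRNAs whose translation stops too early. During translation, a stop codon that lies well upstream of an exon junction leaves an exon junction complex on the mRNA downstream of the ribosome, and UPF1, activated by the kinase SMG1, then directs the mRNA to decay through SMG5, SMG6 and decapping enzymes. Because it needs translation, the pathway acts on RNA that has left chromatin. Many genes of splicing factors use it to limit their own level, by including a poison exon that carries an early stop codon.

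How an NMD isoform arises is shown by the point at which its sequence leaves that of the most abundant coding isoform of the same gene. The 9 pairs below were chosen because the results turn on them: the most abundant NMD isoforms that can be shown in full, isoforms of splicing factors, and an isoform on which the quantifications differed. Each line is read 5′ to 3′ on the transcript's strand, from the GENCODE M21 transcripts. The first 21 bases, in lower case, are the coding bases shared by both isoforms. The capitals mark what follows: in the NMD isoform the bases up to and including its stop codon, which is the last codon shown, and in the coding isoform the next 30 coding bases.
Ddx5-208: atgtggcctccagagggctagGTTAG
Ddx5-201: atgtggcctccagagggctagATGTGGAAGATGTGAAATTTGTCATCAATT
Rsad2-202: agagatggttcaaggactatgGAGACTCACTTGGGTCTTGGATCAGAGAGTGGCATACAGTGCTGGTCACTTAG
Rsad2-201: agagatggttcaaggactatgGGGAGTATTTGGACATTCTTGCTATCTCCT
Oasl2-205: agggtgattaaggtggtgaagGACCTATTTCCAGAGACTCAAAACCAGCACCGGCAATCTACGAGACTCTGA
Oasl2-201: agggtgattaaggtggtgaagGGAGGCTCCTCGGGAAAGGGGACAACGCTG
Rbm39-223: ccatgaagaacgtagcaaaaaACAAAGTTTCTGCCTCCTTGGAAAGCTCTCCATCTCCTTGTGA
Rbm39-217: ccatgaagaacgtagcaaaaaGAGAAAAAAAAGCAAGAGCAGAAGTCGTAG
Patl1-202: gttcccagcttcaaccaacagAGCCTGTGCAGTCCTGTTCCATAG
Patl1-201: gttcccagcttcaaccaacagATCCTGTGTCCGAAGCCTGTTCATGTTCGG
Srsf3-201: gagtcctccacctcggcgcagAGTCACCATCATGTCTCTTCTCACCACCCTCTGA
Srsf3-202: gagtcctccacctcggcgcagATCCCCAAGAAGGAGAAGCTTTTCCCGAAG
Srsf7-203: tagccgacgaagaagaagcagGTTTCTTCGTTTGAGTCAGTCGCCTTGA
Srsf7-201: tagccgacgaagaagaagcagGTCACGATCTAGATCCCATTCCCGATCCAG
Tra2a-202: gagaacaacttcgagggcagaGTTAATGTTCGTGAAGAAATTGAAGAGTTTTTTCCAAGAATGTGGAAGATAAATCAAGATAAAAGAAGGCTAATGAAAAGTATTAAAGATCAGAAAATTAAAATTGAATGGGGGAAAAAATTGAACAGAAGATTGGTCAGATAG
Tra2a-201: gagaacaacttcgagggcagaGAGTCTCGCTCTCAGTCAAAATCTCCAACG
Klhl7-204: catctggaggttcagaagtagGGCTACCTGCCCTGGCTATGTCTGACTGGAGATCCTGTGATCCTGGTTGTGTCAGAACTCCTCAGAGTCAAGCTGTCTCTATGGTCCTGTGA
Klhl7-201: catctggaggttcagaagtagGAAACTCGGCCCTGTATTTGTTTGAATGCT

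In Ddx5-208, which retains an intron, the stop codon was complete 5 bases after the shared exon ended, at chr11:106783954-106783956 on the minus strand (mm10). The intron therefore closes the reading frame almost at once. Srsf3-201 (chr17:29039485-29039487, plus strand) and Srsf7-203 (chr17:80205054-80205056, minus strand) reached a stop after 34 and 28 bases of an added exon. Tra2a-202 read through 144 bases of an added exon before its stop at chr6:49252965-49252967 on the minus strand. In Patl1-202 (chr19:11921942-11921944, plus strand), Rbm39-223 (chr2:156174126-156174128, minus strand) and Rsad2-202 (chr12:26452355-26452357, minus strand), stops followed after 24, 43 and 53 bases. Klhl7-204 (chr5:24151808-24151810, plus strand) read through 92 added bases. Oasl2-205 had no added sequence: it was spliced to a site in an exon that coding isoforms also use, and its reading frame met a stop there after 51 bases (chr5:114901288-114901290, plus strand).

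The 9 pairs stand for the main structural kinds among the 4703 isoforms. In 2856 of them the stop codon lay in an exon shared with a coding isoform, as in Oasl2-205. In 1479 it lay in an added exon or an exon extension, as in Srsf3-201, in 278 it was a coding isoform's own stop codon, and in 74 it lay in a kept intron, as in Ddx5-208. A further 14 came from genes with no coding isoform, and 2 had no annotated stop codon. For the 4701 with a stop codon, the median distance from the stop to the last exon junction was 327 bases (quartiles 159 and 699), and 30 lay under 50 bases. The NMD isoforms were shorter than the coding isoforms of the same genes, with a median of 1074 against 1773 bases, and 1468 had no annotated coding start. Most shared their sequence with other isoforms: 2792 had no base of their own, 526 had fewer than 50, and 1385 had 50 or more. A level for an isoform without bases of its own rests on how the quantification divided shared reads.

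The NMD class held a small part of the host genes' RNA. In the alignment-based tables its share of the summed TPM was 8.77%, 10.6% and 10.8% in replicates 1, 2 and 3 (10.1% ± 1.12, SD, n = 3). In the alignment-free tables, which assign reads to transcripts without a genome alignment, it was 12.9%, 12.7% and 13.0% (12.9% ± 0.159, SD, n = 3). The class was thus higher in every library by the second quantification, and nearly level between libraries there. By expected counts, which do not correct for transcript length, the share was 8.51%, 8.92% and 8.99%.

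Retained-intron isoforms held more of the same genes' TPM than coding isoforms did in replicate 1, and slightly less in replicates 2 and 3. Their shares were 52.5%, 41.3% and 41.3% in the alignment-based tables, against 32.5%, 42.6% and 42.5% for protein-coding isoforms and 6.18%, 5.47% and 5.47% for processed transcripts. By expected counts coding isoforms led in every library, with a mean of 59.7% against 29.7%. Replicate 1, which had the lowest depth, therefore held more retained-intron RNA and less coding RNA than the others. Its NMD share was the lowest in the alignment-based tables only. Among the 1793 NMD isoforms with at least 10 expected counts on average, replicate 1 had the lowest share of the 3 in 936 and the highest in 520 there. Without replicate 1 the class share in the alignment-based tables was 10.7%. By alignment-free estimated counts the NMD share was highest in replicate 1, at 12.5%, against 11.25% and 11.54% in replicates 2 and 3.

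**Figure D1:**
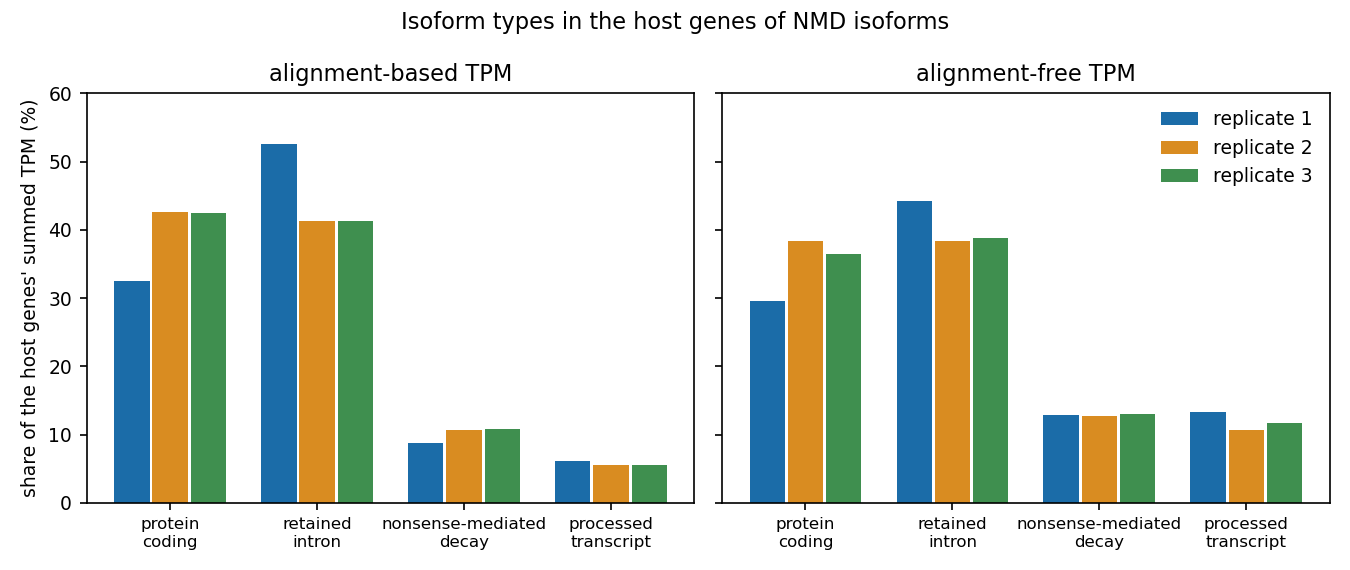
Share of the summed TPM of the 2831 host genes (y axis, percent) held by 4 isoform types, with 1 bar per replicate, in the alignment-based (left) and alignment-free (right) tables. The NMD bars lie between 8.77% and 13.0%, and replicate 1 departs from replicates 2 and 3 mostly in the coding and retained-intron bars.

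Most NMD isoforms were low, and a few carried much of the class. The median NMD isoform held 0.235%, 2.23% and 1.96% of its gene's TPM in replicates 1, 2 and 3, and 2306, 1810 and 1877 isoforms were listed at 0. The alignment-free medians were 3.48%, 4.25% and 4.40%, with 1400, 1174 and 1135 listed at 0. For comparison, the median retained-intron isoform of the same genes held 13.3%, 10.3% and 10.4% in the alignment-based tables. Over all libraries, 1189 NMD isoforms had no expected count in any, 1214 had a mean of at least 1 TPM and 136 of at least 10 TPM. The 10 highest held 19.5%, 11.1% and 14.1% of the class's TPM in replicates 1, 2 and 3. Summed within each gene, NMD isoforms made up at least 50% of the TPM in all 3 libraries in 50 genes by the alignment-based tables, in 105 by the alignment-free tables and in 35 by both.

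Each isoform was then compared with the coding isoforms of its own gene, as log2 of its TPM plus 0.1 minus log2 of their mean TPM plus 0.1. The mean runs over all annotated coding isoforms of the gene, including those listed at 0. An isoform was called where this difference lay beyond 1 on the log2 scale (2-fold) by limma's treat test on the 3 libraries, with a Benjamini-Hochberg adjusted p under 0.05 over all 28700 non-coding isoforms tested. Of the 4689 NMD isoforms tested, 1457 were called below and 80 above their gene's coding isoforms. Over all isoform types, 19.9% were called below and 4.80% above. The shares were 31.1% and 1.71% for NMD isoforms, 7.86% and 7.14% for retained-intron isoforms, and 35.2% and 2.30% for processed transcripts. The NMD isoforms thus lay nearer to processed transcripts than to retained-intron isoforms, and the difference between the types was not tested. The median difference was -1.62 for NMD isoforms, 0.13 for retained-intron isoforms and -1.72 for processed transcripts.

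Much of the shift came from isoforms with few or no reads. Of the 1457 called below, 792 were listed at 0 in all 3 libraries, where the fitted difference is set by the added 0.1 TPM and is no bound. Among the 1782 tested NMD isoforms with at least 10 expected counts on average, the median was -0.34, against 0.43 over all such isoforms tested. The alignment-free tables gave 218 calls above and 1129 below, and 47 and 782 isoforms were called the same way in both, while 21 were called in opposite directions. Without replicate 3 the calls fell to 21 above and 787 below, and without replicate 2 to 37 above.

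**Figure D2:**
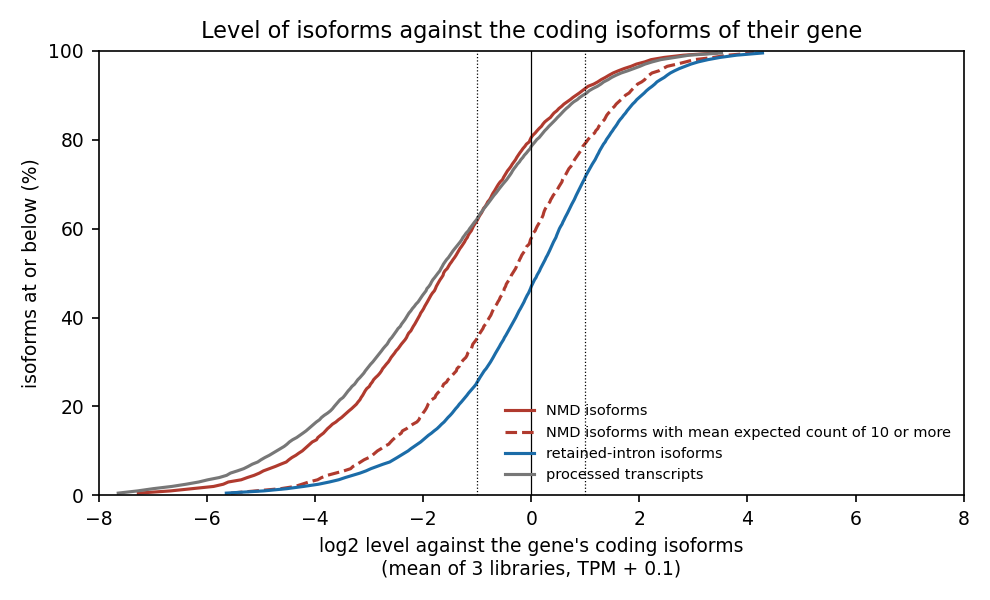
Cumulative share of isoforms (y axis, percent) by their log2 level against the coding isoforms of their gene (x axis, mean of 3 libraries, TPM plus 0.1), with dotted lines at the 2-fold bounds. The NMD curve lies with that of processed transcripts, at medians of -1.62 and -1.72, and NMD isoforms with at least 10 expected counts on average (dashed) lie to the right of it, at a median of -0.34.

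The most abundant NMD isoform with sequence of its own was Ddx5-208, of the DEAD-box RNA helicase DDX5, which takes part in splicing and transcription. It was at 241 TPM, 154 TPM and 224 TPM in replicates 1, 2 and 3, where the highest coding isoform, Ddx5-201, was at 63.3 TPM, 34.3 TPM and 66.1 TPM. The NMD isoform was above the coding isoform in every library, and its values did not overlap with those of the coding isoform. It held 48.3%, 56.5% and 53.0% of the gene's TPM in the alignment-based tables and 38.7%, 38.3% and 28.2% in the alignment-free tables. Against the mean of the gene's 3 coding isoforms it was higher by 3.07 on the log2 scale (SE 0.326, adjusted p = 0.00907, limma's treat). The call was lost in the alignment-free tables (2.21, adjusted p = 0.0785), against the highest coding isoform (1.95, adjusted p = 0.0695), without replicate 2 (3.10, adjusted p = 0.0507) and without replicate 3 (3.22, adjusted p = 0.0519). Of its 3593 bases, 729 occurred in no other isoform of the gene, and its exons also overlap the small RNA genes Mir3064 and Gm25994 on the same strand.

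Interferon-stimulated genes gave 3 more of the 10 most abundant, and of these Gbp5-202 and Oasl2-205 had no base of their own. Rsad2-202, from the gene of the antiviral enzyme viperin, was at 335 TPM, 32.4 TPM and 42.6 TPM. Replicate 1 was far above the other libraries, and there the isoform held 38.5% of the gene against 19.5% and 16.1% in the others. Gbp5-202, of a guanylate-binding protein that acts in defence against intracellular microbes, was at 155 TPM, 82.5 TPM and 129 TPM, or 20.2%, 30.9% and 28.3% of its gene. The highest coding isoform, Gbp5-201, was at 253 TPM, 73.6 TPM and 158.9 TPM, so neither isoform was the higher in every library (log2 difference between them -0.28, adjusted p = 1, limma's treat, with the other sign in the alignment-free tables, 0.34). Oasl2-205, of a protein related to oligoadenylate synthetases, was at 103 TPM, 37.6 TPM and 83.2 TPM, above Oasl2-201 at 32.1 TPM, 11.5 TPM and 21.6 TPM in each library. It was called above its gene's coding isoforms (log2 difference 3.42, SE 0.307, adjusted p = 0.00539, limma's treat), and not when set against the highest of them (1.77, adjusted p = 0.106).

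Of the other abundant isoforms, 2 belong to Lilr4b, which encodes an immunoglobulin-like receptor of myeloid cells. Lilr4b-204 was at 288 TPM, 131 TPM and 289 TPM and Lilr4b-213 at 196 TPM, 58.2 TPM and 130 TPM, and neither had a base of its own, as was also the case for Rbm39-223 and Malt1-211 below. Both Lilr4b isoforms overlap Gm49339 on the same strand, and Lilr4b has a close paralog, Lilrb4a, so the division of reads among these loci is uncertain. Rbm39-223, of a splicing cofactor, was steady at 65.2 TPM, 61.4 TPM and 77.3 TPM, which was 10.1%, 15.0% and 14.7% of its gene. Srrm2-203, of a component of the spliceosome, was at 68.1 TPM, 37.6 TPM and 64.9 TPM. Nckap1l-202, of the WAVE complex subunit that blood cells use to build actin networks, was at 77.8 TPM, 58.8 TPM and 42.1 TPM. Malt1-211, of the paracaspase that acts upstream of NF-κB, was at 69.6 TPM, 51.2 TPM and 77.2 TPM.

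Among genes of at least 10 TPM, the largest shares belonged to isoforms of lower level, of which Tmf1-202, Hnrnpa1-203, Rnf114-203, Zmym5-205, Scaf11-202 and Sra1-203 had no base of their own. Sh2b3-205, of the adaptor LNK that restrains cytokine signalling, held 86.9%, 61.5% and 67.0% of its gene in the alignment-based tables and 51.4%, 37.8% and 41.2% in the alignment-free tables. It retains 2 introns and was called above its gene's coding isoforms (log2 difference 4.02, SE 0.464, adjusted p = 0.00877, limma's treat), and not when set against the highest of them (2.31, adjusted p = 0.0815). Sh2b3-205 overlaps Atxn2 on the other strand, and whether counting used strand is not given in the sources used here. Patl1-202, of a decapping activator found in P-bodies, held 41.3%, 61.8% and 58.7% by the first quantification and 71.5%, 75.2% and 71.8% by the second. In the alignment-based tables Tmf1-202, of a Golgi protein, held 64.7%, 66.7% and 68.6%, the smallest spread of this group there. Its alignment-free shares were 32.63%, 59.47% and 63.55%, with replicate 1 far below the others. Hnrnpa1-203 had the widest spread in the alignment-based tables, at 22.1%, 70.6% and 70.4%. In Hnrnpa1, which encodes an abundant splicing repressor, replicate 1 stood apart from the other libraries in both tables (18.1% against 57.7% and 53.2% in the alignment-free tables). Leaving out replicate 2 or replicate 3 ended the call for Hnrnpa1-203 above the coding isoforms (3.05, adjusted p = 0.149, and 3.13, adjusted p = 0.154, limma's treat, against 3.62, adjusted p = 0.0467, with all libraries). The call was also lost in the alignment-free tables (2.55, adjusted p = 0.0736, limma's treat) and against the highest coding isoform (2.09, adjusted p = 0.258, limma's treat). Pseudocounts of 0.01 and 1 ended it too (adjusted p = 0.0815 and 0.105, limma's treat).

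The remaining large shares were Rnf114-203, Tor3a-206, Zmym5-205, Scaf11-202 and Sra1-203. Rnf114-203, of a ubiquitin ligase, held 82.7%, 48.1% and 61.2% in the alignment-based tables but 30.6%, 2.21% and 4.23% in the alignment-free tables. Tor3a-206, of a torsin ATPase, also fell by TPM, from 71.1%, 43.7% and 56.5% to 20.3%, 9.49% and 14.9%, although 291 of its bases were its own. Neither difference in TPM share passed the test between quantifications described below. By counts Tor3a-206 held 85.2%, 58.55% and 74.2% in the alignment-based tables and still 64.8%, 42.5% and 57.5% in the alignment-free ones. Rnf114-203 fell by counts as well, from 78.3%, 41.2% and 54.8% to 25.15%, 1.69% and 3.26%. Zmym5-205, of a zinc finger protein, held 56.0%, 50.9% and 58.8% and Scaf11-202, of a splicing-related protein, 44.4%, 60.4% and 49.1% by the first quantification. Their mean shares by the second were 27.7% and 27.3%.

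**Figure D3:**
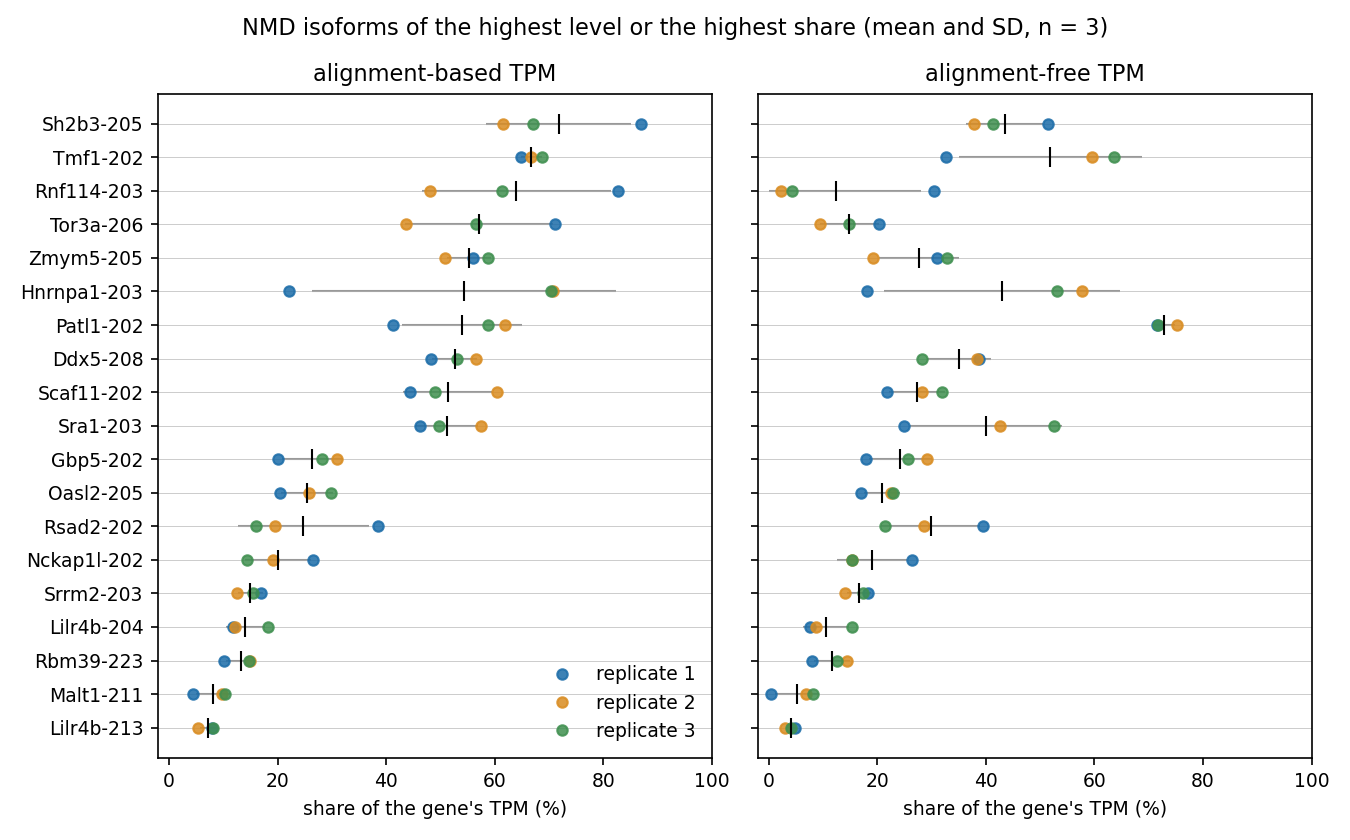
Share of the gene's TPM (x axis, percent) of the 19 NMD isoforms with the highest mean TPM or, among genes of at least 10 TPM, the highest mean share, in the alignment-based (left) and alignment-free (right) tables, with 1 point per replicate, the mean as a black tick and the SD as a grey line. Tmf1-202 has closely grouped points on the left, Hnrnpa1-203 has replicate 1 apart at 22.1%, and Rnf114-203 drops from a mean of 64.0% on the left to 12.3% on the right.

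An NMD isoform was the most abundant isoform of its gene in all 3 libraries in 71 cases by the alignment-based tables, in 165 by the alignment-free tables and in 32 by both. Over all isoform types of genes with several isoforms, 7.10%, 7.97% and 3.24% led their gene by these measures. Of the 4698 NMD isoforms in such genes the shares were 1.51%, 3.51% and 0.681%, each under that background. Without replicates 1, 2 and 3 in turn, the count of 71 became 143, 98 and 89. An isoform must lead in every library kept, so leaving 1 out could not lower the count. Of the 32 that led in both tables, 10 had an exon that spans an intron of a coding isoform, beside 292 of the 4689 NMD isoforms tested for level. All 32 had at least 10 expected counts on average, as did 1793 of all 4703 NMD isoforms. Several were named after their values were seen. Psmc5-202, of a proteasome ATPase, held 80.5%, 87.3% and 79.8%, Cdk9-208, of the kinase that releases paused RNA polymerase II, held 48.0%, 31.3% and 34.7%, and Nlrp1b-205, of an inflammasome sensor, held 47.5%, 39.0% and 48.3%. Their alignment-free shares were 75.8%, 82.3% and 76.4% for Psmc5-202, 45.1%, 32.0% and 36.6% for Cdk9-208, and 60.6%, 53.6% and 57.3% for Nlrp1b-205.

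The largest called differences above the coding isoforms came from genes whose coding isoforms were close to 0. Hyi-202, of an isomerase, was at 3.27 TPM, 3.84 TPM and 5.06 TPM, and the gene's only coding isoform was listed at 0 in every library. Pop5-203, of an RNase P subunit, was at 2.92 TPM, 1.32 TPM and 2.00 TPM with its coding isoform also listed at 0, and 963 of its bases were its own. For both, no difference is given, since it would be set by the value added to 0. Hyi-202 had no base of its own, nor had Lilrb4a-205 below. Atrip-204, from the gene of the partner of the checkpoint kinase ATR, was at 3.39 TPM, 2.49 TPM and 2.37 TPM, where Atrip-201 was at 0 TPM, 0.24 TPM and 0.04 TPM. Its log2 difference was 4.37 from the mean of the gene's 4 coding isoforms (SE 0.342, adjusted p = 0.00336, limma's treat) and 4.07 from the highest of them (SE 0.541, adjusted p = 0.0109, limma's treat). Its exons overlap Trex1 on the same strand. Uba7-214, of the enzyme that activates ISG15, was at 6.94 TPM, 3.61 TPM and 5.29 TPM. Its gene's only coding isoform, Uba7-201, was at 0 TPM, 0 TPM and 1.27 TPM. The log2 difference therefore moved with the value added, at 6.66 with a pseudocount of 0.01 and 2.22 with 1, neither of them called. Uba7-214 was also not called without replicate 1 (3.59, adjusted p = 0.13) or without replicate 2 (4.06, adjusted p = 0.11). Its exons overlap Gm20661 on the same strand. Lilrb4a-205, from the receptor locus noted above, was at 1.33 TPM, 20.6 TPM and 37.6 TPM, with replicate 1 far below the others. The 4 coding isoforms of Lilrb4a were listed at 0 in every alignment-based library, so no difference is given for those tables. The call was lost for Lilrb4a-205 in the alignment-free tables (4.09, adjusted p = 0.121), for Hyi-202 with posterior mean TPM (adjusted p = 0.131) and for Pop5-203 with a pseudocount of 1 (adjusted p = 0.14, limma's treat).

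At the other end were isoforms of strongly expressed genes that were absent or nearly so. Tnfaip2-211, Ahnak-205 and Il10rb-203 were listed at 0 in all 3 libraries, while their genes were at means of 1690 TPM, 755 TPM and 81.9 TPM. Tnfaip2 is an inflammatory response gene, Ahnak encodes a giant scaffold protein, and Il10rb a subunit of the interleukin 10 receptor. Tnfaip2-210 was at 0.18 TPM, 0.65 TPM and 1.09 TPM, beside Tnfaip2-201 at a mean of 554 TPM. Tcirg1-208, of a proton pump subunit, was at 0 TPM, 0 TPM and 0.19 TPM in a gene of 746 TPM. The alignment-free tables gave 46.2 TPM, 17.3 TPM and 23.8 TPM for Tnfaip2-210 and 7.63 TPM, 2.72 TPM and 4.69 TPM for Il10rb-203, so these levels turned on the quantification. Of these isoforms, Ahnak-205 alone had bases of its own.

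Isoforms that keep an intron stood out among the structural kinds by share. The 292 NMD isoforms with an exon that spans an intron of a coding isoform had median shares of 8.92%, 8.64% and 9.02% in replicates 1, 2 and 3, against 0%, 1.84% and 1.63% for the 4397 without. In the alignment-free tables the medians were 7.75%, 8.21% and 7.32% against 3.18%, 3.91% and 4.17%. Of the 292, 18 were called above and 26 below their gene's coding isoforms, or 6.16% and 8.90%, beside 7.14% and 7.86% of retained-intron isoforms. Of the 4397 others, 62 and 1431 were called above and below, or 1.41% and 32.5%. The gap narrowed among isoforms with at least 10 expected counts on average, of which the first kind had 213 and the second 1569: their median shares were 12.0% and 8.83%. In the alignment-free tables the gap among these was smaller still, at 9.22% and 8.26%. The 292 were also longer, with a median of 2584 bases against 980. The part that length and depth had in the difference was not tested.

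The place of the stop codon also went with the share. The 74 isoforms with the stop in a kept intron had median shares of 13.4%, 13.4% and 14.0%, and those with the stop in an added exon had 1.45%, 3.18% and 3.05%. Those that use a coding isoform's own stop were at 0.935%, 2.58% and 2.73%, and those with a stop in a shared exon at 0%, 1.44% and 1.14%. Kept introns were first and added exons next in every library, and in the alignment-free tables too, at 10.7%, 13.0% and 11.3% and at 6.94%, 7.40% and 7.15%. There the other kinds were at 1.66%, 2.61% and 2.87% and at 1.85%, 2.75% and 3.04%, in the opposite order. Among isoforms with at least 10 expected counts on average, median alignment-based shares were 16.1% for kept introns and 12.5% for a coding isoform's own stop. Added exons followed at 9.09%, near shared exons at 8.63%. The alignment-free medians of these kinds were 11.4%, 8.89%, 10.65% and 7.34%, so added exons were second only there. The part that depth had in the order was not tested. The 14 isoforms of genes with no coding isoform had medians of 73.5%, 71.1% and 57.6%. The 1926 isoforms made wholly of coding-exon sequence were called below in 38.0% of cases, and the 648 with over 25% of their bases outside coding exons in 22.4%. The stop's distance to the last junction moved with length. Isoforms whose stop lay over 700 bases before the last junction had a median length of 2880 bases and 22.0% called below. Those whose stop lay under 160 bases before it had a median length of 649 bases and 38.0% called below.

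**Figure D4:**
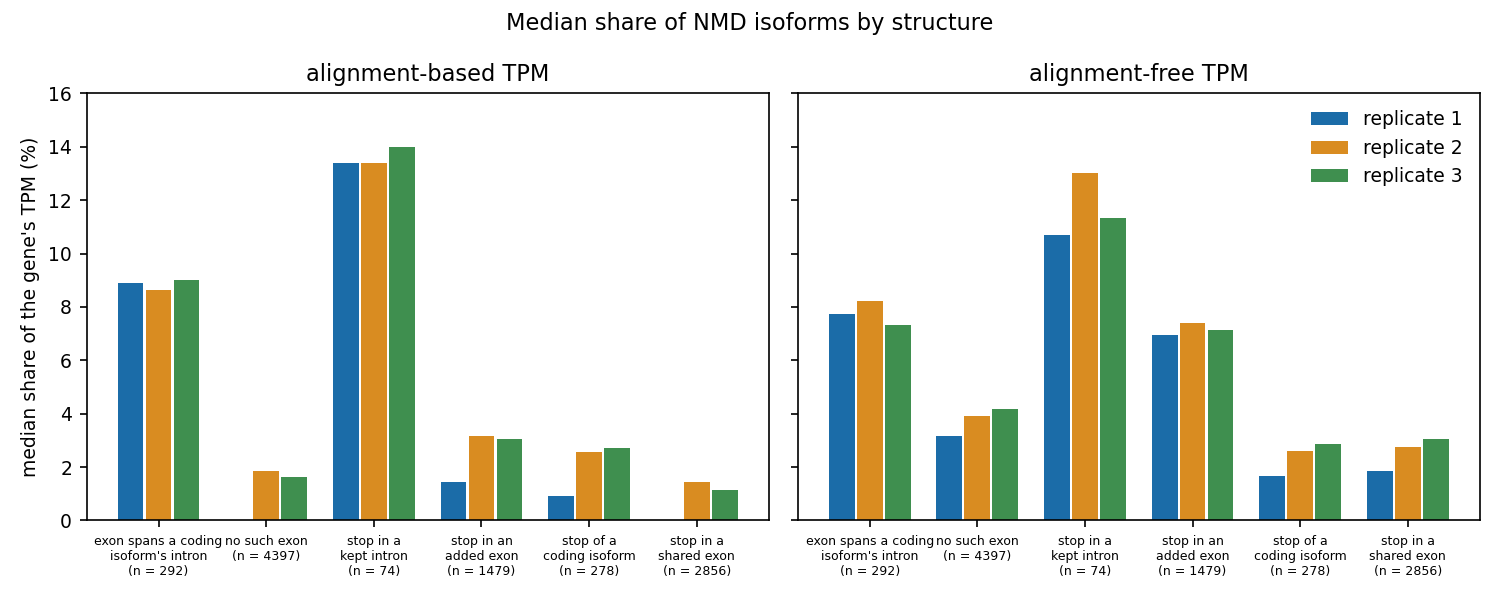
Median share of the gene's TPM (y axis, percent) of NMD isoforms by structure, with 1 bar per replicate, in the alignment-based (left) and alignment-free (right) tables. The bars of isoforms that keep an intron, and of those with the stop in a kept intron, are the tallest of their comparison in every library, and 0% medians in replicate 1 give no bar.

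How far a share can be trusted depended on the quantification. For each isoform, the difference between alignment-free and alignment-based share was taken in each library on the scale of log2 of the percent plus 1 and tested by limma's treat for a difference beyond 1, over 58505 isoforms of all types. Of 4698 NMD isoforms, 169 were called higher in the alignment-free tables and 16 lower. Over all types, 3.00% were called higher and 0.769% lower, beside 3.60% and 0.34% of NMD isoforms, so the counts lie near the background. Of the 169, 129 were listed at 0 in every alignment-based library, and 11 had at least 10 expected counts on average, beside 1194 and 1793 of all 4703 NMD isoforms. With any 1 replicate left out no NMD isoform was called by limma's treat, while 653, 653 and 561 had an unadjusted p under 0.05 without replicates 1, 2 and 3. Leaving the isoforms with a mean expected count under 10 out of the test left 8 called higher.

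The largest called increases were isoforms that the alignment-based tables listed at 0 throughout. Klhl7-204, of a substrate adaptor for ubiquitin ligases, held 73.8%, 71.0% and 66.2% of its gene in the alignment-free tables. It has 122 bases of its own. Trip13-203 held 68.6%, 59.1% and 57.9%, Ap2s1-203 held 65.3%, 47.8% and 51.8%, Adhfe1-202 held 49.0%, 54.7% and 62.7%, and Kxd1-209 held 71.4%, 46.1% and 38.3%. Their genes encode a checkpoint ATPase, a clathrin adaptor subunit, a mitochondrial dehydrogenase and a lysosome-positioning factor. Gene means were 1.46 TPM for Klhl7, 1.01 TPM for Trip13, 1.29 TPM for Adhfe1, 3.38 TPM for Kxd1 and 9.90 TPM for Ap2s1. Trip13-203, of 382 bases, held 16.9%, 10.9% and 7.31% of its gene's alignment-free estimated counts. Its call between quantifications was lost by expected counts (adjusted p = 0.0903) and by posterior mean TPM (adjusted p = 0.803, limma's treat). That for Kxd1-209 was lost by expected counts (adjusted p = 0.0533) and that for Adhfe1-202 by posterior mean TPM (adjusted p = 0.0679, limma's treat). Klhl7-204 and Ap2s1-203 kept it by both measures. All of the isoforms named here led their gene by TPM in the alignment-free tables. All were called below their coding isoforms in the alignment-based ones, so both the share and its direction turned on the quantification. The calls below held with any 1 replicate left out for Ap2s1-203, and were lost without at least 1 replicate for the other 4. With all values listed at 0, these differences are set by the added 0.1 TPM. A pseudocount of 1 ended every one of these calls (-1.51, adjusted p = 0.158, limma's treat, for Ap2s1-203). By posterior mean TPM the call held for Ap2s1-203 (-2.59, adjusted p = 0.0113, limma's treat) and was lost for the other 4.

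The opposite difference was seen for Mx1-205, of a dynamin-like antiviral GTPase. It was at 83.0 TPM, 19.2 TPM and 44.9 TPM in the alignment-based tables, or 10.7%, 12.3% and 17.9% of the gene, and at 1.12 TPM, 0.114 TPM and 0.934 TPM in the alignment-free tables, or 0.0503%, 0.0481% and 0.167%. Zfp329-203, Rif1-203, Vps13c-203 and Myo7a-212 held mean shares of 23.7%, 11.7%, 17.7% and 16.6% in the alignment-based tables, and between 0% and 0.431% in the alignment-free ones. None of these except Myo7a-212, with 72 bases, had a base of its own. Among the 16 called lower, 13 had no base of their own, beside 2792 of all 4703 NMD isoforms. Over the 1793 isoforms with at least 10 expected counts on average, the mean shares by the 2 quantifications had a Pearson r of 0.776 across isoforms, and of 0.814 over the 698 with at least 50 bases of their own and 0.712 over the 878 with none. Isoforms of 1 gene share their reads, so these are descriptions. Between libraries, r of the share was 0.733, 0.750 and 0.877 for replicates 1 and 2, 1 and 3, and 2 and 3 in the alignment-based tables, and 0.851, 0.873 and 0.937 in the alignment-free tables.

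**Figure D5:**
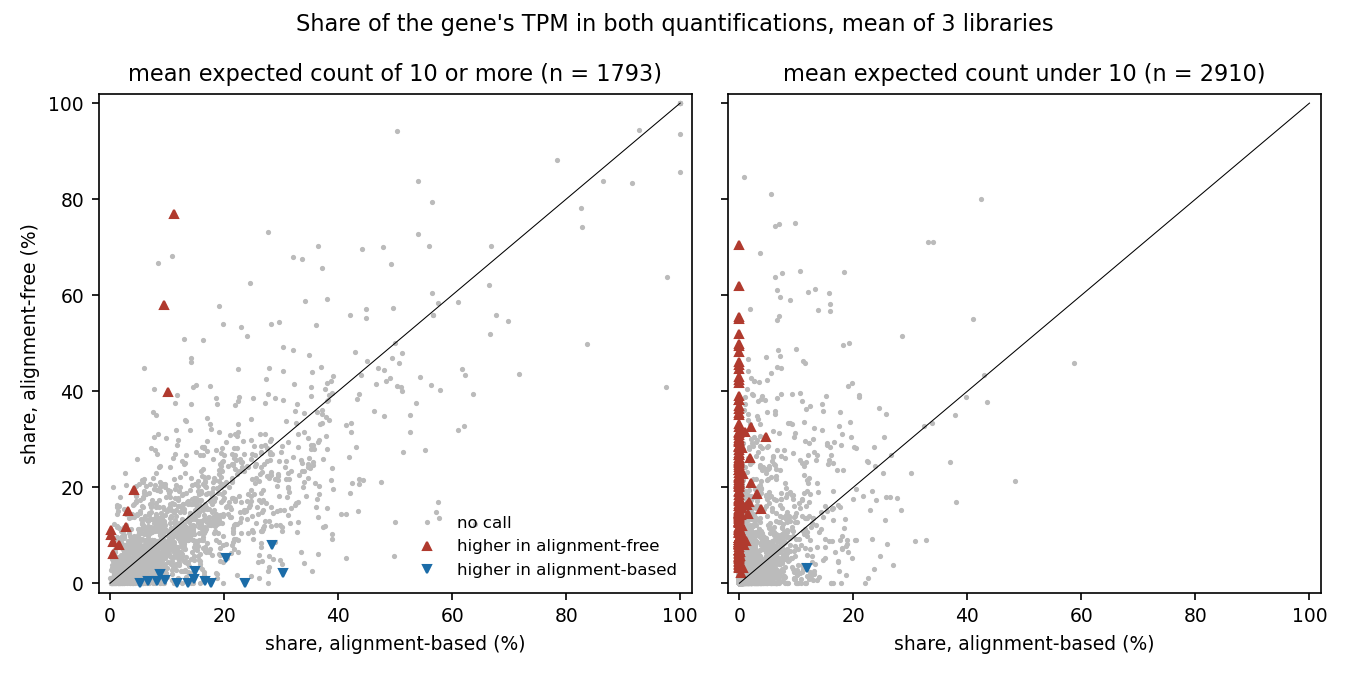
Mean share of the gene's TPM in the alignment-based (x axis) and alignment-free (y axis) tables, in percent, for each NMD isoform, split by mean expected count (1793 isoforms with at least 10, left, and 2910 with fewer, right). Red triangles mark the 169 isoforms called higher in the alignment-free tables, most of them on the y axis of the right panel, and blue triangles the 16 called lower.

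SR proteins, which bind exons and promote their splicing, and their relatives TRA2A and TRA2B had 19 NMD isoforms in 11 of 13 genes. None was called above the coding isoforms and 9 were called below, where 1.71% and 31.1% of all NMD isoforms were, with a median log2 difference of -3.15 (-1.62 over all NMD isoforms). For SR proteins, NMD factors, NF-κB, TLR4 signalling, cytokines and macrophage markers alike, with 0 calls above, 0 isoforms had an unadjusted p under 0.05 in that direction by limma's treat, and the alignment-free tables gave 1 call above among these lists, for Tra2a-202 (5.26, adjusted p = 0.0038, limma's treat). Tra2a-202 had the highest share of this family, at 33.4%, 27.2% and 24.0%, and 50.3%, 53.0% and 58.5% in the alignment-free tables. The isoform was at 43.9 TPM, 10.4 TPM and 16.7 TPM, while the highest coding isoform was at 0 TPM, 5.99 TPM and 15.0 TPM. The log2 difference was 2.22 from the mean of both coding isoforms (adjusted p = 0.298, limma's treat) and 3.24 from the highest (adjusted p = 0.358, limma's treat). Tra2a-202 was above the highest coding isoform in every library, with a gap that differed widely between them. Srsf4-204 held 22.0%, 18.0% and 20.7%, and Srsf6-201 held 9.06%, 16.1% and 17.0%. Srsf3-201, whose added exon is shown above, was at 7.97 TPM, 3.53 TPM and 4.85 TPM, near its coding isoform Srsf3-202 at 15.0 TPM, 3.11 TPM and 4.98 TPM. It held 7.20%, 5.93% and 6.56% of a gene in which retained-intron isoforms held a mean of 80.1%. Srsf7-203 held 3.66%, 2.67% and 4.79%, and Tra2b-206 held 0.649%, 10.9% and 6.75%, with replicate 1 far below the others. The remaining named isoforms, Srsf5-208 and Srsf11-210, had mean shares of 0.544% and 0.715%. Of the named isoforms of this family, Tra2a-202 and Srsf7-203 had bases in no other isoform of their gene.

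Among hnRNP proteins and other splicing regulators, 53 of 77 genes were hosts, with 119 NMD isoforms. Of these 7 were called above and 36 below, beside 1.71% and 31.1% of all NMD isoforms, and the median share was 2.72% against 2.62% over all NMD isoforms. Ddx5-208, Rbm39-223 and Srrm2-203 led the list by TPM, followed by Rbm25-208, of a factor that directs 5′ splice site choice, at 27.0 TPM, 34.7 TPM and 54.8 TPM. Rbm25-208, which had no base of its own, held 7.49%, 18.0% and 20.7%, with replicate 1 lowest, as it was for Hnrnpa1-203 and Rbm39-223.

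The genes of the decay pathway itself were expressed: 31 of 32 NMD factors and exon junction proteins had a mean of at least 1 TPM, with gene medians of 10.6 TPM, 7.48 TPM and 10.1 TPM. Upf1 was at 10.8 TPM, 15.9 TPM and 19.7 TPM, and Smg1 at 166.4 TPM, 115.9 TPM and 141.3 TPM. Of these 31 genes 7 were hosts, a share near that of all genes at this level (2831 of 11430). They had 10 NMD isoforms, of which none was called above and 4 below (Dcp1a-211, Magohb-202, Smg6-202 and Pnn-204), where the shares over all NMD isoforms were 1.71% and 31.1%. Smg1-204 had the highest share, at 9.70%, 30.8% and 23.8% (17.9%, 31.2% and 25.2% in the alignment-free tables), and its main coding isoform held a mean of 22.6%. It had no base of its own. Magohb-204 held 19.6%, 0% and 15.7%, Smg5-202 held 5.59%, 6.77% and 5.32%, and Ruvbl2-206 held 0%, 14.2% and 7.03%. Magohb-203 and Dcp1a-209 were above 0 in 1 alignment-based library each. Dcp1a-211, from a gene of decapping, was at 0.16 TPM, 0 TPM and 0 TPM in the alignment-based tables and held 16.5%, 12.4% and 19.0% in the alignment-free ones. There its difference from the coding isoforms had the other sign (1.13, adjusted p = 0.7, limma's treat), and the call for Magohb-202 was lost without replicate 2 (-2.26, adjusted p = 0.131) or replicate 3 (-2.38, adjusted p = 0.133).

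The counts of the inflammatory lists are read against 1.71% of all NMD isoforms called above and 31.1% called below, and against NMD isoforms in 2831 of the 11430 genes of at least 1 TPM. NF-κB subunits and feedback regulators had 11 in 7 of 23 genes, with none called above and 5 below. Beside Malt1-211, Malt1-212 held 5.23%, 6.39% and 5.69%, while Malt1-204 held 0.917%, 1.29% and 0.581% and was called below (log2 difference -3.75, SE 0.436, adjusted p = 0.00953, limma's treat), though not in the alignment-free tables (-1.70, adjusted p = 0.132). Relb-210, of an NF-κB subunit, held 5.78%, 13.0% and 8.72%. TLR4 signalling components had 12 in 10 of 34 genes, with none above and 7 below. Ikbkb-208, of the kinase that marks IκB for degradation, held 11.0%, 12.4% and 12.2%, and it spans an intron, whereas Ikbkb-203 was at 0 TPM in replicates 1 and 2 and 4.85 TPM in replicate 3. Irak2-209, of a kinase of the TLR signalling complex, held 0.841%, 7.22% and 3.15%. Tbk1-204, of the kinase that activates IRF3, held 2.61%, 3.68% and 2.81% and was called below (-3.06, SE 0.314, adjusted p = 0.00833), a call that was lost without replicate 3 (-2.96, adjusted p = 0.0664, limma's treat).

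Interferon regulators and interferon-stimulated genes had 24 NMD isoforms in 17 of 61 genes. Oasl2-205 was the 1 isoform called above, and 10 were called below, beside the 1.71% and 31.1% of all NMD isoforms. Cytokines and chemokines, many of which are among the strongest lipid A targets, had NMD isoforms in 2 of 34 genes: Cxcl16-202 held 20.9%, 8.85% and 15.1%, and Il15-209 held 3.58%, 2.54% and 3.16%. Il15-209 was called below (-2.11, SE 0.309, adjusted p = 0.0397), and not without replicate 2 (-2.03, adjusted p = 0.187) or without replicate 3 (-2.11, adjusted p = 0.198, limma's treat). In the alignment-free tables its difference had the other sign (0.49, adjusted p = 1). The macrophage markers had 5 NMD isoforms in 5 of 25 genes, with none called above and 3 below (1.71% and 31.1% over all NMD isoforms), and none reached a mean expected count of 10.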

How the data were processed

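Chromatin-fraction total RNA-seq of lipid A-treated macrophages was used, in 3 libraries of 1 group. Per the deposited description files, the authors aligned to mm10 with the GENCODE M21 annotation and deposited tables of genes and transcripts holding expected counts, TPM and posterior mean TPM, and separate transcript tables quantified from the reads without alignment, with estimated counts and TPM. Neither tools nor versions are named in those files.

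Isoform types came from the transcript names. Shares were computed as the isoform's TPM or count over its gene's sum. Level (log2 of TPM plus 0.1) and the difference between quantifications (log2 of percent plus 1) were tested with limma 3.58.1 (R 4.3.3; treat, bound 1, Benjamini-Hochberg adjusted p under 0.05) over all isoforms, and the test was checked on simulated data. Structures came from the GENCODE M21 annotation, with bases of an isoform's own counted against the other isoforms of its gene. Expected counts were not rounded, since no count model was used: with 1 group there is no contrast of counts.

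The members and gene lists were chosen with earlier results of these data known. Named isoforms are the 10 highest by mean TPM, the 10 highest by mean share (gene TPM and mean count of at least 10), the 5 largest called in each direction of each test, up to 4 per gene list by TPM (8 for SR proteins and NMD factors) and their highest coding isoforms. Alternatives were other quantifications, pseudocounts, references and filters, and leaving out each replicate.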

Additional observations from a re-analysis of the deposited data

How the results depend on the processing

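No comparison between groups was possible because 1 group was used, and the quantifications were compared as pairs within each library. The number called above the coding isoforms, 80, was 218 in the alignment-free tables, 27 with a pseudocount of 1, 32 against the highest coding isoform, and 21 to 83 with 1 replicate left out. The number called below, 1457, was 472 with a pseudocount of 1, 163 among isoforms with a mean count of at least 10, where fewer are tested, and 787 to 1371 with 1 replicate left out. Between quantifications, 169 were called higher and 16 lower. By expected counts these were 101 and 4, with a pseudocount of 0.1, 306 and 28, with a pseudocount of 5, 38 and 1, and 0 and 0 without any 1 replicate. By posterior mean TPM 415 were called lower, with a trend in the variance 8, and with a mean count of at least 10, 8 were called higher. The class share was 12.85% in the alignment-free tables and 8.81% by expected counts, and 9.70% to 10.7% with 1 replicate left out. The number leading their gene was 165 in the alignment-free tables, 44 in genes of at least 5 TPM, and 89 to 143 with 1 replicate left out. The cause was not tested, apart from the smaller numbers tested or libraries used. By the alignment-free quantification, 7 called differences from the coding isoforms changed sign: Klhl7-204 3.45, Adhfe1-202 2.47, Ap2s1-203 2.81, Kxd1-209 2.97, Trip13-203 1.49, Dcp1a-211 1.13 and Il15-209 0.49. For Gbp5-202, not called, the difference changed sign there (0.339). Of the other alternatives for named levels, 243 kept direction and side of the threshold, 72 lost the call and 1 gained it (Tra2a-202). Depth limits isoforms of low count: 2910 of 4703 had a mean expected count under 10, and the counts carry no replicate beyond 3 libraries.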
